A study of Mus musculus with 10 samples.

Results

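Expression of 10 genes of the carnitine shuttle and of mitochondrial fatty acid beta-oxidation was followed in liver. They were taken by symbol from the 24421 genes of the deposited count table, by a rule that used no measured value, though chosen with earlier results of these data known: Cpt1a, Slc25a20, Cpt2, Acadvl, Acadl, Acadm, Acads, Hadha, Hadhb and Hadh. All 10 were found, and all 10 were among the 11092 genes that passed the filter on low counts. The livers came from male C57BL/6 mice aged 21 weeks, wild-type animals of the J substrain by the study's methods. The Chow group (n = 5, mice 41 to 45) received standard chow, and the TM5614 group (n = 5, mice 46 to 50) received chow that delivered TM5614, a small-molecule inhibitor of the protease inhibitor PAI-1, at 20 mg/kg/day for 10 days. Each library was made from the liver of 1 mouse. The comparison asks how hepatic mRNA levels differed when PAI-1 was inhibited by the drug. All animals were of 1 sex and strain, and the drug was present in the whole animal, so an action on the liver itself and one from another organ cannot be told apart.

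Long-chain fatty acids reach the mitochondrial matrix through the carnitine shuttle. Cpt1a, the liver form of carnitine palmitoyltransferase 1, joins the acyl group to carnitine at the outer membrane and is the step that malonyl-CoA inhibits. Slc25a20 exchanges acylcarnitine for free carnitine across the inner membrane, and Cpt2 returns the acyl group to coenzyme A inside. Each turn of beta-oxidation then begins with an acyl-CoA dehydrogenase chosen by chain length (Acadvl, Acadl, Acadm or Acads) and goes on with hydration, a second dehydrogenation and thiolysis. For long chains these last steps are carried out by the trifunctional protein, made of Hadha and Hadhb, while Hadh acts on shorter chains. In liver much of the acetyl-CoA produced is turned into ketone bodies, and several genes of the pathway are known targets of the nuclear receptor PPARα.

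The sequences around the RefSeq starts of these genes are given first, for reference beside the values. No link between the windows and the changes was tested. The RefSeq windows of the GRCm38.p6 build, from 250 bases before to 50 after the annotated start, were found for all 10. Those of Hadhb, Cpt2 and Acadl, the genes that passed the test for higher expression in TM5614, are shown with each GGGCGG (the core of the GC box bound by Sp1) or its reverse complement CCGCCC in capitals. Hadhb lies at chr5:30155003-30155302 on the plus strand, Cpt2 at chr4:107923540-107923839 on the minus strand and Acadl at chr1:66863260-66863559 on the minus strand.
Hadhb: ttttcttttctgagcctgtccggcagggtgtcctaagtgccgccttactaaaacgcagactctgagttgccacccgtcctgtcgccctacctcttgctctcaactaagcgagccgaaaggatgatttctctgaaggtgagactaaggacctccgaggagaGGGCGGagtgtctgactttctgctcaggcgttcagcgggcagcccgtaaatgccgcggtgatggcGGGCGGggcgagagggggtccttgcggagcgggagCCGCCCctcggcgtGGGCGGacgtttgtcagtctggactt
Cpt2: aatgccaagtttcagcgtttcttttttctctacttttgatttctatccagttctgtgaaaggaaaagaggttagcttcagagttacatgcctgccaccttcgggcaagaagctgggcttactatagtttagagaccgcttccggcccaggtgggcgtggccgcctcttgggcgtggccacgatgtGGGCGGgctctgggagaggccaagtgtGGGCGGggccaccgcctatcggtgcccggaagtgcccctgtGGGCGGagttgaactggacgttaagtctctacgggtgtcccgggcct
Acadl: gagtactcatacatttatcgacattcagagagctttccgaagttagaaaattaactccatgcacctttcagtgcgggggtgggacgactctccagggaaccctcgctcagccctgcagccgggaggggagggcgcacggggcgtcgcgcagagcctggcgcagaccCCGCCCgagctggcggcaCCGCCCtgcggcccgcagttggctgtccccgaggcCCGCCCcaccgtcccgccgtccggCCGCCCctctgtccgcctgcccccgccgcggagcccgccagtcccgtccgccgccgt

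The next windows are those of the genes that hold AGGTCA, the half-site that many nuclear receptors recognise, or its reverse complement TGACCT, in capitals. Cpt1a lies at chr19:3323051-3323350 on the plus strand, Acadm at chr3:153944594-153944893 on the minus strand and Acadvl at chr11:70015379-70015678 on the minus strand. The Cpt1a window is inside the span given for that gene below (3322334 to 3385733), whose annotation starts further upstream than RefSeq's.
Cpt1a: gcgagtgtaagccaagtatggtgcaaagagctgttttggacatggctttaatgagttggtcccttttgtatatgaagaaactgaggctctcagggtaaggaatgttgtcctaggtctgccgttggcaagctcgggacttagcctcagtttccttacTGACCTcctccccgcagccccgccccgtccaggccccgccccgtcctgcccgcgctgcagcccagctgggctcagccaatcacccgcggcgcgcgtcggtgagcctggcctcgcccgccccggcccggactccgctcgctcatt
Acadm: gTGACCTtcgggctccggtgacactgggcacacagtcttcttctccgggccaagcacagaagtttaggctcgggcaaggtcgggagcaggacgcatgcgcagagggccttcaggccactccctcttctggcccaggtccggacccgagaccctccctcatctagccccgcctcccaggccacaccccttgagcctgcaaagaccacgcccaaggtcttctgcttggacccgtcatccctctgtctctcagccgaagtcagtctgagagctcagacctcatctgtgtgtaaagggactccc
Acadvl: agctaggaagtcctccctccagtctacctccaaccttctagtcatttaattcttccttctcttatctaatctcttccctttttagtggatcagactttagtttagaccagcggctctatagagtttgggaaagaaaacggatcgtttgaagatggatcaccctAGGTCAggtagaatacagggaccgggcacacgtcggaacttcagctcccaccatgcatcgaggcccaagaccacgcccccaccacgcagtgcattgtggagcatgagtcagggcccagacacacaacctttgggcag

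Both strands of each window were searched. AGGTCA was found in the windows of these 3 genes of 10, and in 16.3% of the 32851 windows of the same length over all genes. GGGCGG was found in 8 of 10, all but Acadm and Acadvl, against 35.7% of all windows. The 8 include Acads and Hadh, whose estimates with all libraries were below 0. The GC content of the 10 windows ran from 50.7% (Acadvl) to 70.3% (Acadl). The windows of all genes were not matched to them in GC content or expression. The pair of half-sites 1 base apart that PPARα with its partner RXR can bind, searched as AGGNCA repeated in the same direction with any 1 base between (each repeat can be the AGGTCA above), was in none of the 10 and in 0.381% of all windows. CCAAT was found in the windows of Cpt1a and Hadh, 2 of 10 against 37.4%. Neither TATAAA (13.6% of all windows) nor the E-box CACGTG (7.15%) was found in any of the 10. A match is a run of letters and not evidence of binding.

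Hadha and Hadhb, whose products form 1 protein complex, lie head to head on chromosome 5. RefSeq places the start of Hadha (minus strand) at 30154980 and that of Hadhb (plus strand) at 30155253, 273 bases apart, so their 2 windows share 228 bases. The only GGGCGG match of Hadha, at -188 from its start, covers the same bases as the Hadhb match at -90. That site is therefore counted for both genes among the 8 with GGGCGG.

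Total counts per library ran from 6398335 (Chow replicate 4) to 10874955 (Chow replicate 2). Counts of the 10 genes ran from 698 (Hadhb, Chow replicate 4) to 11413 (Cpt1a, TM5614 replicate 5), at which counting error alone is 3.79% and 0.936% of the value. Hepatocyte markers summed to 115600 to 127400 CPM (counts scaled by library size, with TMM factors) in Chow and 99000 to 117000 in TM5614. A pair of libraries stood apart. Chow replicate 2 had a mean correlation of 0.927 with the rest of its group over genes, against 0.965 to 0.982 in the other 9 libraries. A smooth trend on transcript GC content and length accounted for 49.9% of the variance of its deviations, against 0.904% to 4.43% in the other Chow libraries and 1.01% to 13.1% in TM5614. TM5614 replicate 2 held 0.473% of its counts in 12 skeletal muscle genes, led by Acta1 with 9330 counts. None of the 12 was at 0 in every library, and their summed level was 0.736 to 1.25 CPM in Chow and 1.44 to 81.4 CPM in the other TM5614 libraries. Calls are therefore given with and without each of these libraries and without both.

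Of the 10 genes, 3 rose in TM5614 and none fell. Hadhb rose 1.69-fold, Cpt2 1.33-fold and Acadl 1.29-fold, and 8 of the 10 estimates were above 0. The test was edgeR's quasi-likelihood test with Benjamini-Hochberg adjustment over all 11092 genes, at an adjusted p under 0.05. By the same rule 1.73% of all genes were higher and 2.77% lower. At an unadjusted p under 0.05, 6 of the 10 genes were higher and 0 lower, beside 8.69% and 11.7% of all genes. DESeq2 called 5 higher and 0 lower, beside 3.08% and 5.03% of all genes. The median log2 fold change of the 10 was 0.36, and that of all genes was 0.01. In 4 of the 10 (Cpt2, Acadl, Acadm and Hadhb) each TM5614 library lay above each Chow library, as did 4.07% of all genes. No gene of the 10 showed the reverse, against 4.87% of all genes. Together the 10 genes took 0.362% ± 0.0243 (SD, n = 5) of all counts in Chow and 0.467% ± 0.0341 (SD, n = 5) in TM5614.

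The number of genes called depended on single libraries. Without Chow replicate 2, 6 of the 10 were higher and 0 lower, Cpt1a, Acadm and Hadha being added, while 3.63% of all genes were higher and 5.61% lower. Leaving out replicate 2 of both groups gave the same 6 genes, beside 4.81% of all genes higher and 6.32% lower, and so did limma-voom with sample quality weights on all libraries, beside 5.25% and 7.25%. Without TM5614 replicate 2 alone, Cpt2 and Hadhb were called higher (1.34% of all genes). Acadl lost its call there (edgeR adjusted p = 0.0764), while Cpt1a stood at 0.73 ± 0.21 (log2 ± SE, edgeR adjusted p = 0.0854) and Hadha at 0.41 ± 0.10 (edgeR adjusted p = 0.0587). Without TM5614 replicate 3, 4 or 5 no gene of the 10 was called higher or lower by edgeR, beside 0.793%, 0.874% and 1.22% of all genes called higher. In each of these fits 6 of the 10 were higher at an unadjusted p under 0.05, as were 6.42%, 6.84% and 7.17% of all genes. Without Chow replicate 4, Chow replicate 5 or TM5614 replicate 1, Hadhb alone was called, beside 1.14%, 1.25% and 1.09% of all genes higher. Cpt2 also lost its call without Chow replicate 1, and Acadl without Chow replicate 3. With counts corrected for GC content and length, the calls were the 3 named first, beside 2.74% of all genes higher and 4.34% lower.

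**Figure D1:**
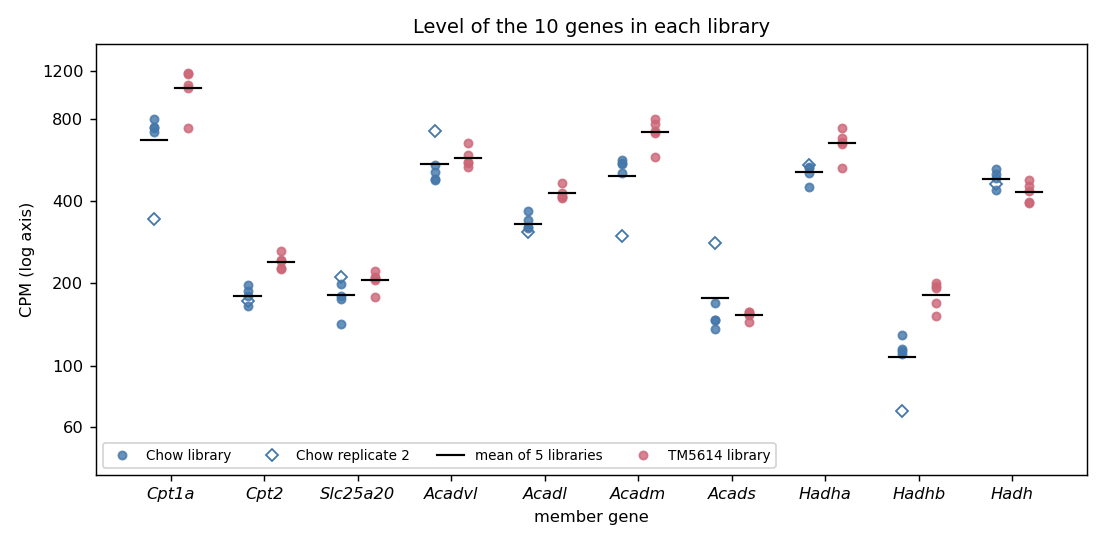
Level of each of the 10 genes in each library, in CPM on a log axis. Blue marks are Chow libraries (n = 5, with replicate 2 as an open diamond), red marks are TM5614 libraries (n = 5), and bars are group means; Chow replicate 2 is the lowest Chow library for Cpt1a, Acadl, Acadm and Hadhb and the highest for Slc25a20, Acadvl, Acads and Hadha.

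Levels of different genes were compared per length only, as CPM per kilobase of the gene length implied by the deposited values. All 10 genes were abundant, in Chow between the percentiles 89.0 and 97.5 of the genes tested. The highest mean in Chow was that of Hadh, at 267 ± 18.6 CPM per kilobase (SD, n = 5), followed by Acadvl at 247 ± 45.5 and Acadm at 236 ± 53.4. Hadhb was the lowest at 51.3 ± 11.1, below Cpt2 at 76.1 ± 5.41. Of all neighbours in this order, the ranges over libraries were apart only between Cpt2 and Hadhb. In TM5614 the highest mean was that of Acadm, at 342 ± 40.3, and the lowest that of Acads, at 81.2 ± 2.84.

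In the carnitine shuttle, Cpt2 rose and the other genes did not pass the test with all 10 libraries. Cpt1a (chromosome 19, 3322334 to 3385733, plus strand, GRCm38) was measured at 742, 343, 718, 746 and 799 CPM in Chow replicates 1 to 5. In TM5614 it stood at 1036, 739, 1164, 1061 and 1171 CPM. Chow replicate 2 lay far below the other Chow libraries, and TM5614 replicate 2 fell among those, so the groups overlapped. The estimate was a log2 fold change of 0.63 ± 0.21 (SE), or 1.54-fold, with an edgeR adjusted p of 0.123. Without Chow replicate 2 it was smaller but more precise, at 0.46 ± 0.13 (edgeR adjusted p = 0.0416), and without replicate 2 of both groups it was 0.56 ± 0.08 (edgeR adjusted p = 0.00117).

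Cpt2 (chromosome 4, 107903981 to 107923610, minus strand) had 188, 172, 198, 166 and 179.8 CPM in Chow. Its TM5614 libraries had 244, 227, 241, 262 and 226 CPM. The groups did not overlap, and Chow replicate 2 lay within its group. On the log2 scale Cpt2 rose by 0.41 ± 0.09 (SE) at an edgeR adjusted p of 0.0295, and by 0.38 ± 0.08 without Chow replicate 2 (edgeR adjusted p = 0.00971).

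The carrier Slc25a20 (chromosome 9, 108662088 to 108684641, plus strand) was at 179.7, 211, 199.9, 142 and 175 CPM in Chow and at 212, 178, 205, 223 and 209 CPM in TM5614. The groups overlapped between 178 and 211 CPM. The estimated change was 0.18 ± 0.12 (log2 ± SE) with a 95% interval from -0.09 to 0.44 and an edgeR adjusted p of 0.423. The other forms of carnitine palmitoyltransferase 1 were nearly absent: Cpt1b, the muscle form, had at most 5 counts in any library and Cpt1c, the brain form, at most 6.

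Among the acyl-CoA dehydrogenases, Acadl rose, Acadm was separated between the groups without passing the test, and Acadvl and Acads did not differ beyond their spread. Acadl (chromosome 1, 66830839 to 66863277, minus strand), which acts on long chains, had 368, 309.5, 340.2, 320.4 and 318 CPM in Chow. It had 410.4, 416, 416, 466 and 427 CPM in TM5614. Every TM5614 library was above the highest Chow library. The rise was 0.37 ± 0.09 (log2 ± SE) at an edgeR adjusted p of 0.0439. It was 0.33 ± 0.08 without Chow replicate 2 (edgeR adjusted p = 0.0162) and 0.27 ± 0.07 with the GC and length correction (edgeR adjusted p = 0.0462).

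Acadm (chromosome 3, 153922357 to 153944632, minus strand), the medium-chain enzyme, stood at 566, 298, 549, 507 and 545 CPM in Chow. In TM5614 it stood at 707, 578, 719, 796 and 767 CPM. The groups were apart, by a narrow gap between Chow replicate 1 and TM5614 replicate 2, and Chow replicate 2 lay well below the rest. With all libraries its log2 estimate was 0.53 ± 0.17 (SE) and the edgeR adjusted p 0.102. Without Chow replicate 2 it was 0.39 ± 0.10 and passed the test (edgeR adjusted p = 0.0264).

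Acadvl (chromosome 11, 70010183 to 70015411, minus strand), the very-long-chain enzyme, had 482, 720.3, 544, 511 and 476 CPM in Chow and 588, 555, 533, 651 and 549 CPM in TM5614. Chow replicate 2 was the highest of the 10 libraries. With all libraries the log2 estimate was 0.07 ± 0.13 (SE), with a 95% interval from -0.20 to 0.35 and an edgeR adjusted p of 0.765, and without Chow replicate 2 it was 0.19 ± 0.08 (edgeR adjusted p = 0.189). Of the 2686 exonic bases annotated for Acadvl, 1151 are shared with Dvl2 on the opposite strand. Whether reads were counted by strand is not given in the sources used here, so its counts are uncertain.

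Acads (chromosome 5, 115110299 to 115119346, minus strand), the short-chain enzyme, had 137, 282, 170.0, 147 and 148 CPM in Chow. In TM5614 it had 154, 155, 144, 157 and 158 CPM, a narrow range inside that of Chow. The estimate was -0.20 ± 0.18 (log2 ± SE), with a 95% interval from -0.60 to 0.19 and an edgeR adjusted p of 0.548. Its sign rested on Chow replicate 2, without which the estimate was 0.02 ± 0.08 (edgeR adjusted p = 0.893).

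In the trifunctional protein, Hadhb rose, with the largest estimate of the 10 genes when all libraries were used, and Hadha passed the test only under some of the alternatives. Hadhb (chromosome 5, 30155248 to 30184593, plus strand) encodes the thiolase subunit. It was at 114, 68.2, 129.8, 111 and 116 CPM in Chow and at 169.6, 152, 196, 200.2 and 193 CPM in TM5614. The groups did not overlap, with or without Chow replicate 2. The rise on the log2 scale was 0.76 ± 0.16 (SE) with an edgeR adjusted p of 0.0197, and 0.63 ± 0.10 without Chow replicate 2 (edgeR adjusted p = 0.00189).

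Hadha (chromosome 5, 30118304 to 30155162, minus strand) encodes the subunit with the hydratase and hydroxyacyl-CoA dehydrogenase activities. In Chow it had 526, 543, 535, 452 and 505 CPM. In TM5614 it had 682, 528, 649, 739.6 and 660.0 CPM. All TM5614 libraries but replicate 2 lay above all Chow libraries. By edgeR the estimate was 0.35 ± 0.11 (log2 ± SE) and the adjusted p 0.102. DESeq2 gave 0.34 ± 0.11 (DESeq2 adjusted p = 0.0332), and edgeR without Chow replicate 2 gave 0.36 ± 0.10 (edgeR adjusted p = 0.0431).

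Since the proteins of Hadha and Hadhb act as one complex and their genes start side by side, the level of Hadhb was set against that of Hadha in the same library, per length. This ratio was chosen after the values had been seen. In Chow replicates 1 to 5 Hadhb stood at 39.9%, 23.2%, 44.8%, 45.2% and 42.3% of Hadha. In TM5614 it stood at 46.0%, 53.3%, 55.7%, 50.0% and 54.0%. The groups did not overlap, although the highest Chow and the lowest TM5614 value were close. The log2 ratio was higher in TM5614 by 0.44, given as a description with no test. Without Chow replicate 2, the lowest library, the difference was 0.26. It was 0.40 with the GC and length correction.

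**Figure D2:**
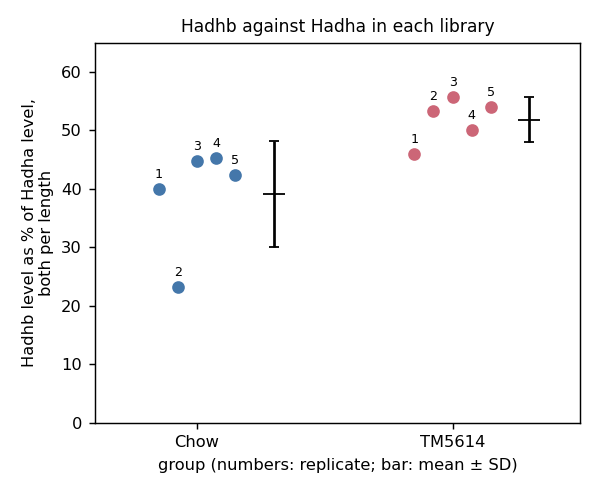
Level of Hadhb as a percentage of that of Hadha, both per length, in each library (points, numbered by replicate), with the mean ± SD of each group beside them (n = 5). TM5614 libraries lie between 46.0% and 55.7% and Chow libraries between 23.2% and 45.2%, Chow replicate 2 being the lowest.

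Hadh (chromosome 3, 131233419 to 131272101, minus strand), which acts after the chain has been shortened, went the other way without passing the test. In Chow it had 526, 464, 502, 439 and 487 CPM, and in TM5614 479.6, 399, 392, 435 and 454 CPM. The groups overlapped. Its estimate was -0.16 ± 0.10 (log2 ± SE), with a 95% interval from -0.38 to 0.05 and an edgeR adjusted p of 0.373. It stayed below 0 with each library left out in turn, between -0.20 and -0.13.

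**Figure D3:**
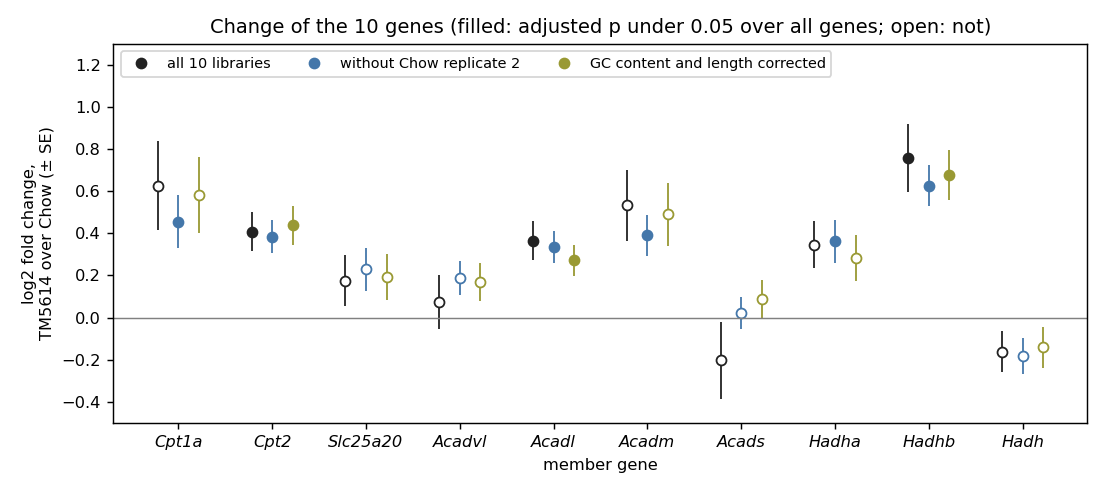
Log2 fold change of each of the 10 genes, TM5614 over Chow, with its standard error, from all libraries (black), without Chow replicate 2 (blue) and with GC content and length corrected (olive). Filled points passed an adjusted p of 0.05 over all genes tested: Cpt2, Acadl and Hadhb did so in all 3 fits, and Cpt1a, Acadm and Hadha only without Chow replicate 2.

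Chow replicate 2 was below the other 4 Chow libraries in 4 of the 10 genes, above them in 4 and within them in 2. Its deviations from the mean of the others ran from -1.13 (Cpt1a) to 0.91 (Acads) on the log2 CPM scale. Acads also had the transcript of highest GC content (60.1%), while Acadl (45.2%) and Hadhb (45.4%) had the lowest. Over the 10 genes, which share 1 library, the deviations and GC content had a Pearson r of 0.66. The same r was -0.81, -0.59, -0.39 and -0.51 in Chow replicates 1, 3, 4 and 5. The mean that each of these was set against contains replicate 2. They therefore mirror replicate 2 in part and cannot be used to judge its r. The correction made the deviation smaller in 6 genes and larger in 4 (Cpt2 from -0.08 to -0.26, Hadh from -0.07 to -0.25, Hadha from 0.11 to 0.27 and Acadl from -0.12 to 0.16). After it the deviation of Acads was 0.19 and that of Acadvl went from 0.52 to 0.20, but that of Cpt1a was still -0.94, that of Acadm -0.75 and that of Hadhb -0.48.

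**Figure D4:**
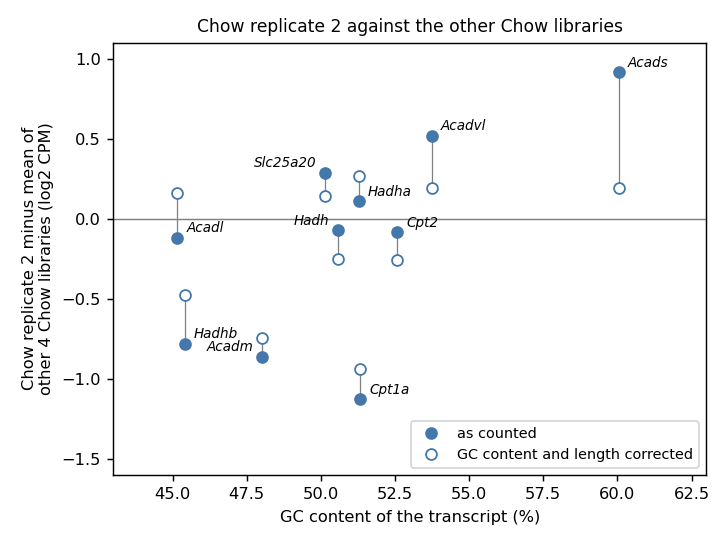
Deviation of Chow replicate 2 from the mean of the other 4 Chow libraries (log2 CPM) against the GC content of the transcript (%) for the 10 genes, as counted (filled) and after correction for GC content and length (open), joined by a line. The correction brings Acads from 0.91 to 0.19 and leaves Cpt1a at -0.94.

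The other genes of the pathway were read from 8 lists of the same fit, in which 7 genes were higher and 6 lower of 99 tested. Beside these, 1.73% and 2.77% of all genes were higher and lower. Without Chow replicate 2 the counts were 12 and 10, beside 3.63% and 5.61% of all genes. With any other 1 library left out the counts were 2 to 5 higher and 3 to 5 lower. The fewest (2 and 3) came without TM5614 replicate 3 or TM5614 replicate 4, where 0.793% and 0.874% of all genes were higher. Ehhadh, Slc16a1, Acsm5, Thrsp and Mid1ip1 kept their call with each library left out in turn. Slc22a5, Etfdh, Acsm1, Rxra, Ppargc1b, Crot, Idh3a and Fh1, also called with all libraries, each lost it in at least 1 of these fits. Adjusted p-values in the following are edgeR's with Benjamini-Hochberg adjustment over all genes, log2 fold changes carry their SE, and levels are mean ± SD with n = 5.

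Of the genes of carnitine supply, 1 of the 4 tested (of 7 listed) rose and none fell, with a list median log2 fold change of 0.33. The riser was Slc22a5, the plasma membrane carnitine transporter, at 33.8 ± 9.74 CPM in Chow and 59.5 ± 11.3 CPM in TM5614 (0.81 ± 0.21, adjusted p = 0.0458). Of the 7 genes listed for electron transfer from the acyl-CoA dehydrogenases, 5 were tested, Flad1 and Slc25a32 among them. Only Etfdh rose. It encodes the oxidoreductase that hands the electrons to ubiquinone (336 ± 68.7 CPM in Chow and 525 ± 57.4 CPM in TM5614, 0.64 ± 0.15, adjusted p = 0.0331). The genes of its electron donor, Etfa and Etfb, had log2 fold changes of 0.20 ± 0.11 and -0.16 ± 0.23 (adjusted p = 0.316 and 0.715).

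Of 22 other mitochondrial enzymes, acting mostly on shorter, unsaturated or branched chains, none was higher and 2 were lower, with a median of -0.03. Acsm1 fell from 342 ± 60.7 to 230.5 ± 27.2 CPM (-0.57 ± 0.13, adjusted p = 0.0339) and Acsm5 from 125 ± 15.3 to 84.5 ± 4.94 CPM (-0.57 ± 0.11, adjusted p = 0.0124). Both encode ligases that activate medium-chain acids and do not take part in the oxidation cycle itself. Acaa2, the mitochondrial thiolase for shorter chains, had a log2 fold change of -0.10 ± 0.15 (adjusted p = 0.716). In the 20 genes that did not pass, the estimates ran from -0.23 to 0.56.

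Of 13 genes listed for the control of Cpt1 by malonyl-CoA, 2 fell and none rose, with a median of -0.26. The list holds Midn, which has no known role in that control (-0.39, adjusted p = 0.107), and the median of the other 12 was -0.20. Thrsp, known as Spot 14, fell from 79.8 ± 32.6 to 13.6 ± 3.69 CPM (-2.55 ± 0.30, adjusted p = 0.00072). Mid1ip1, its paralogue, fell from 38.6 ± 9.01 to 14.2 ± 1.04 CPM (-1.44 ± 0.16, adjusted p = 0.000437). Both encode proteins that bind acetyl-CoA carboxylase or act in lipogenesis. The carboxylase genes themselves, which make malonyl-CoA, did not pass: Acaca had -0.43 ± 0.13 (adjusted p = 0.0949) and Acacb 0.27 ± 0.20 (adjusted p = 0.469). Mlycd, which removes malonyl-CoA, had -0.01 ± 0.14 (adjusted p = 0.959).

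Of 18 regulators of the pathway, 2 fell and none rose, with a median of -0.05. Rxra, the partner receptor of PPARα, fell from 594 ± 29.3 to 457 ± 37.2 CPM (-0.38 ± 0.09, adjusted p = 0.0417). With 1 library left out it kept its call only without Chow replicate 2 (adjusted p = 0.0153), the others giving adjusted p-values of 0.0559 to 0.127. The coactivator gene Ppargc1b fell from 20.3 ± 6.18 to 11.4 ± 1.62 CPM (-0.83 ± 0.20, adjusted p = 0.0417). Ppara itself had a log2 fold change of -0.03 ± 0.14 (adjusted p = 0.922).

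Peroxisomes shorten very-long-chain fatty acids by a separate set of enzymes. Of 15 such genes, 2 rose and none fell, with a median of 0.28. Ehhadh, the bifunctional enzyme, rose from 292 ± 111 to 1447 ± 382 CPM (2.31 ± 0.28, adjusted p = 0.000889), and Crot, which passes shortened acyl groups to carnitine, rose from 739 ± 243 to 1542 ± 242 CPM (1.06 ± 0.23, adjusted p = 0.0209).

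Of 5 genes of ketone body metabolism, 1 rose and none fell, with a median of 0.40 and all 5 estimates above 0. Slc16a1, a carrier of ketone bodies and lactate, went from 46.6 ± 10.0 to 104 ± 19.7 CPM (1.16 ± 0.17, adjusted p = 0.00266). Of 17 genes of the TCA cycle, 2 rose and the median was 0.03. Idh3a rose from 31.8 ± 6.41 to 48.8 ± 3.27 CPM (0.62 ± 0.15, adjusted p = 0.0362) and Fh1, fumarase, from 212 ± 53.0 to 335 ± 45.6 CPM (0.66 ± 0.16, adjusted p = 0.0389), although the groups overlapped for Fh1.

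**Figure D5:**
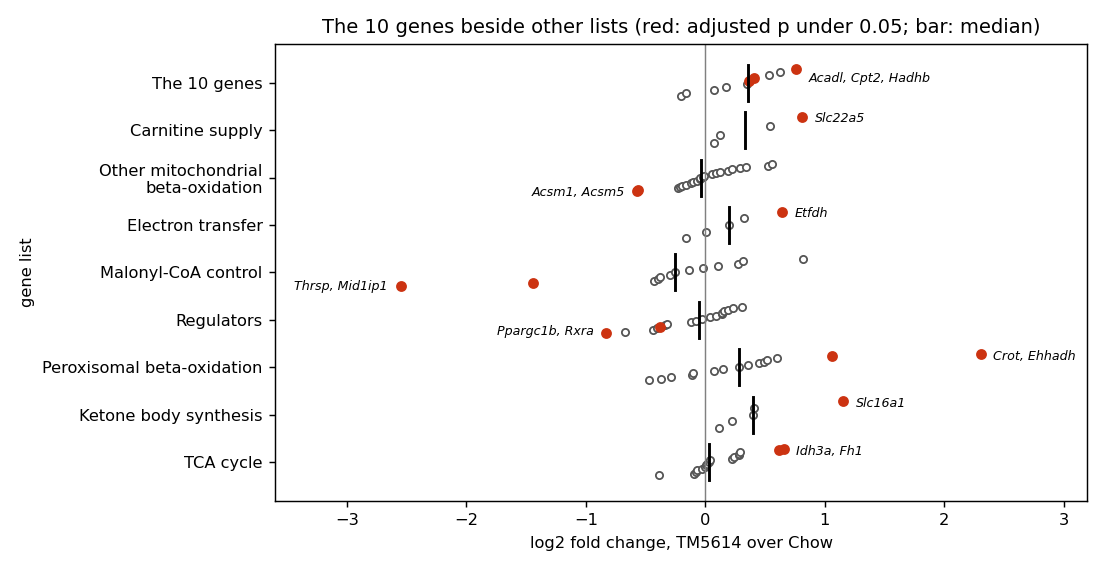
Log2 fold change, TM5614 over Chow, of every tested gene of the 10 and of 8 other lists of the pathway (1 circle a gene, spread vertically for legibility). Red points passed an adjusted p of 0.05 over all genes and are named, and black bars are list medians, 0.36 for the 10 genes and -0.03 for the other mitochondrial enzymes.

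In whole liver, fewer cells of a type and less RNA per cell cannot be told apart. None of the 8 hepatocyte markers passed the test in either direction. The 10 Kupffer cell markers summed to 83.4 to 264 CPM in Chow and 83.2 to 178 CPM in TM5614. None of them passed, but all 10 estimates were below 0, from -0.75 to -0.20 (log2) with a median of -0.43. Stellate cell markers summed to 161 to 285 CPM in Chow and 258 to 344 CPM in TM5614 without replicate 2 (537 CPM with it), and none of 7 passed. Sums for endothelial cells were 72.3 to 129 and 70.2 to 127 CPM, and for cholangiocytes 33.3 to 50.4 and 27.5 to 74.1 CPM, with no marker passing among 6 and 3 tested. Adipose markers summed to 0.209 to 9.38 CPM in Chow and 0.343 to 19.5 CPM in TM5614, with 0 of 1 tested passing. Of 10 pericentral markers, 1 was higher (Axin2, log2 fold change 0.90 ± 0.21, adjusted p = 0.0304) and 3 lower (Cyp1a2, -0.66 ± 0.12, adjusted p = 0.00791, Gulo, -0.65 ± 0.13, adjusted p = 0.0124, and Lect2, -0.83 ± 0.19, adjusted p = 0.0317). Of 8 periportal markers none passed. The part of cell composition in the changes of the 10 genes was not tested.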

How the data were processed

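Polyadenylated RNA from the livers of 10 mice was made into libraries (KAPA mRNA HyperPrep) and sequenced as single reads of 75 bp. Per the labels and the study's methods, the authors aligned the reads with STAR to mm10 and deposited raw counts per gene, which were tested here, and FPKM values per gene, used here only for gene lengths (counts divided by FPKM). Versions, the annotation and the strand setting of the counting are not given in the sources used here. The deposited rlog values and the table of the authors' own comparison (fold changes and p-values) were not used.

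The 2 groups of 5 separate mice were compared in R 4.3.3 with the quasi-likelihood test of edgeR 4.0.16 (filterByExpr, TMM, Benjamini-Hochberg over 11092 genes). Alternatives were DESeq2 1.42.0, limma 3.58.1 (voom with quality weights), other scalings and filters, each library left out, a replicate block, and a correction for GC content and length (natural splines with 5 degrees of freedom each, from the GENCODE M21 transcript nearest to the implied length, found for 96.7% of genes tested). No batch is given in the labels. Scripts were tested on simulated data. No 2 libraries of a group agreed within sampling noise (lowest chi-square over degrees of freedom 7.50 in 20 pairs). The 10 genes and the lists were chosen with earlier results of these data known. Of the other lists every gene past the threshold is named, and a few that did not pass are given for their role, chosen after their values were seen.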

Additional observations from a re-analysis of the deposited data

Results flagged for a closer look

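Extreme libraries were looked for with Dixon's criterion in the 2 groups of 12 measures, 24 groups in all, of which 5 were flagged where chance would flag about 1.2. All 5 were Chow replicate 2, so they are not independent of each other. Its level was low for Cpt1a (343 CPM, other Chow libraries 718 to 799) and Acadm (298 CPM, others 507 to 566). It was high for Acadvl (720.3 CPM, others 476 to 544) and Acads (282 CPM, others 137 to 170.0). Its Hadhb level was 23.2% of that of Hadha per length, where the others had 39.9% to 45.2%.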

How the results depend on the processing

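Under 21 alternative settings of the test, no gene of the 10 other than Acads changed direction. The estimate for Acads was above 0 with voom and quality weights (0.002), with GC content and length corrected (0.089), without Chow replicate 2 (0.023) and without replicate 2 of both groups (0.025), passing the threshold in none of them, and it ran from -0.296 to 0.023 with 1 library left out. The number of the 10 genes called was 5 with DESeq2, 6 with voom, 6 without replicate 2 of both groups, 1 with no filter on low counts and 0 at an adjusted p under 0.01, and 0 to 6 with 1 library left out. The number of all genes called was 499 in the reported test, 900 with DESeq2, 1386 with voom, 785 with the GC and length correction, 1230 without replicate 2 of both groups and 184 at an adjusted p under 0.01, and 235 to 1031 with 1 library left out. The 8 other lists held 13 genes called in the reported test, 30 with voom, 6 with no filter, 32 without replicate 2 of both groups, 4 at an adjusted p under 0.01, and 5 to 22 with 1 library left out. The cause of these shifts was not tested.

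The labels give no pairing of the replicate numbers between the groups. Same-numbered libraries had correlations of deviations from 0.032 to 0.318, and 1 of 5 Chow libraries correlated best with its own number. So few values cannot settle whether any samples were paired. With the replicate block 555 genes (230 higher, 2.07%) and 3 of the 10 were called, the latter being Acadm (edgeR adjusted p = 0.0349), Cpt1a (0.0198) and Hadhb (0.00861), while Cpt2 (0.0585) and Acadl (0.0822) were not called. The difference between the groups in the log2 ratio of Hadhb to Hadha, TM5614 minus Chow, was 0.265 to 0.505 with 1 library left out. It was 0.253 without replicate 2 of both groups. These alternatives were chosen after the data had been seen. Depth limits Cpt1b and Cpt1c, whose counts of at most 5 and 6 allow no comparison, more than the 10 genes, whose lowest count was 698.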
